A study of Mus musculus with 5 samples.

Results

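The circadian clock genes Per1, Per2, Per3, Cry1, Cry2, Dbp, Tef, Nr1d1, Nr1d2 and Clock were read in mouse spleen on 5 2-colour microarrays. They were taken by symbol from the probe annotation of the array, which gave 19 probes for these 10 genes out of 38784 probes in all. A value was present on all 5 arrays for 13 of the 19 probes, and every one of the 10 genes had at least 1 such probe. All 10 were therefore among the 9000 genes, of 14654 with a symbol, that had a value on all arrays and were tested. The spleens came from Sirt6-/- mice (2 arrays, called knockout here) and from Sirt6-/- mice that were also heterozygous for Rela (RelA+/-, 3 arrays, called heterozygous here). SIRT6 is a sirtuin that removes acetyl groups from histones. Rela codes for p65, a subunit of NF-kB. By their labels both groups therefore lack Sirt6, and the comparison between them is of labelled Rela dose on that background. Each spleen RNA carried Cy5 and was hybridised against Cy3-labelled RNA from a pool of wild-type spleens, with no dye swap. The sources used here give no age, sex or time of day for the spleens taken.

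The clock is a feedback loop of transcription that runs in nearly every cell of the body, the spleen included. CLOCK pairs with BMAL1, encoded by Arntl, and the pair binds E-box sequences to drive the Per and Cry genes, the REV-ERB genes Nr1d1 and Nr1d2, and the output factors Dbp and Tef. PER and CRY proteins then repress CLOCK and BMAL1, REV-ERB proteins repress Arntl, and DBP and TEF act on D-box sequences. The messages of Per, Dbp and Nr1d1 rise and fall over the day in mouse tissues, so that a single level depends on the hour of collection. Per1 is also known to be induced by glucocorticoids and by cAMP signalling.

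Values are log2 ratios of the mutant spleen to the pool, centred on the median of each array, and a value of 1 is a doubling. No source used here states the base of the logarithm or the direction of the ratio. The direction was read from the dyes as Cy5 over Cy3, and with the ratio turned every sign below would turn with it. An array holds ratios and not levels, so that neither the expression level of a gene nor the tissue itself can be read from it, and probes were compared only with themselves. In whole spleen, fewer cells of a type and less RNA per cell cannot be told apart. The Sirt6 probes had 1 value in all (-4.31 on heterozygous array 2), so the knockout was not checked by them. Rela read 0.48 and 1.07 in the knockout, 1.15 on heterozygous array 1, -0.08 on array 2 and -0.20 on array 3. Heterozygous array 1 thus goes against its label and is called the library labelled heterozygous 1. Arrays 2 and 3 lay close to the pool on this 1 probe, so it does not show them to be heterozygous either. In each run of heterozygous values the library labelled heterozygous 1 comes first, followed by arrays 2 and 3. The correlation over genes (not independent of each other) was 0.823 between the knockout arrays and 0.335, 0.214 and -0.006 among the heterozygous ones. With knockout arrays 1 and 2, the library labelled heterozygous 1 correlated at 0.392 and 0.588. Heterozygous array 2 did so at 0.46 and 0.376, and array 3 at -0.156 and -0.017. The library labelled heterozygous 1 and array 2 thus each correlated more with both knockout arrays than with any other heterozygous array. The Y-linked genes Uty, Kdm5d and Eif2s3y were above the pool on all 5 arrays (1.45 to 2.96), so that sex and genotype cannot be told apart against the pool. The heterozygous minus knockout difference is free of both the pool and the dye.

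In the Sirt6 knockout spleens the clock genes lay above the wild-type pool. The mean of every one of the 10 genes was above 0, with a median log2 ratio of 1.10 against -0.03 over all genes tested. On both knockout arrays 9 of the 10 were above the pool, where 39.6% of all genes were and 41.9% were below it on both. With the ratio turned, the same 9 genes would lie below the pool. The highest were Per3 at 1.98, Cry2 at 1.72, Nr1d1 at 1.48 and Cry1 at 1.29, and the lowest was Dbp at 0.29. Averaged over complete probes alone, Tef was at 1.77 and Per2 at 1.74, between Per3 and Cry2. In the heterozygous spleens the median of the same genes was 0.14, and the heterozygous mean was below the knockout mean for 9 of 10. The gap was widest for Nr1d1 (-2.26), Per1 (-1.55), Cry1 (-1.41) and Cry2 (-1.22).

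None of these values passed the test over all genes. Limma fitted the 5 arrays together, with Benjamini-Hochberg adjustment over 9000 genes at 0.05. It called 0 of the 10 clock genes in the knockout against the pool (0% of all genes, smallest adjusted p among the clock genes 0.108). It called 0 of 10 in the heterozygous group against the pool (0.322% of all genes) and 0 of 10 in the difference between the groups (0% of all genes). At an unadjusted p under 0.05, 6 of the 10 were higher in the knockout (Clock, Cry1, Cry2, Nr1d1, Per1 and Per3), beside 9.82% of all genes (10.6% were lower). In the heterozygous group 1 of the 10, Per3, was higher, beside 5.06% of all genes. In the difference 4 of the 10 were lower (Cry1, Cry2, Nr1d1 and Per1), beside 5.34% of all genes. Genes of 1 feedback loop are not independent of each other, and the 10 were chosen with results of these data known, so these counts are a description. Both these counts and those of all genes changed when an array was left out, not always in the same direction. In the knockout, 20.4% of all genes had an unadjusted p under 0.05 in either direction with all arrays. Without knockout array 1 the clock count was 2 of 10 (7.7% of all genes), and without knockout array 2 it was 0 (4.96%). Omitting the library labelled heterozygous 1 gave 7 (29.3%). In the difference, where 8.82% of all genes had such a p, the clock count was 0 (3.64%), 1 (2.99%) and 5 (15.4%) under the same omissions. Omitting heterozygous array 2 gave a count of 3 in the difference, although the share of all genes rose to 12.2%. The plots of each probe by array and of the group means show the values behind these counts.

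**Figure D1:**
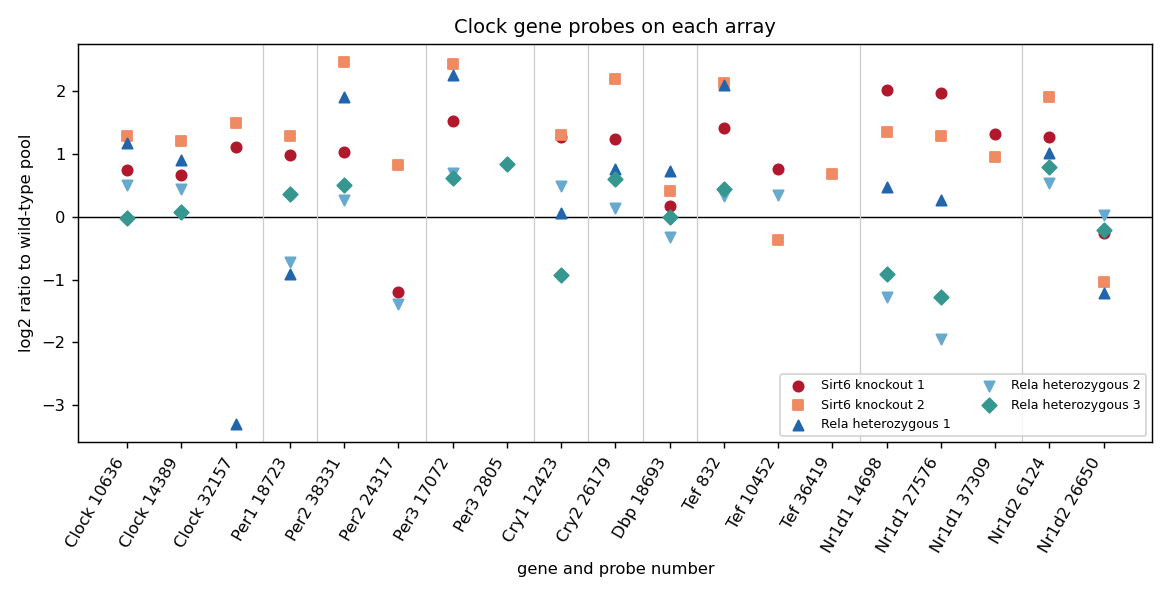
Log2 ratio to the wild-type pool (vertical axis) of the 19 clock gene probes on each array; each mark is 1 array, and a missing mark is a cell left blank in the deposited table. The knockout marks (circle and square) lie above 0 at 12 of the 13 probes read on all arrays, and a single probe of Clock reads -3.30 on the library labelled heterozygous 1.

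**Figure D2:**
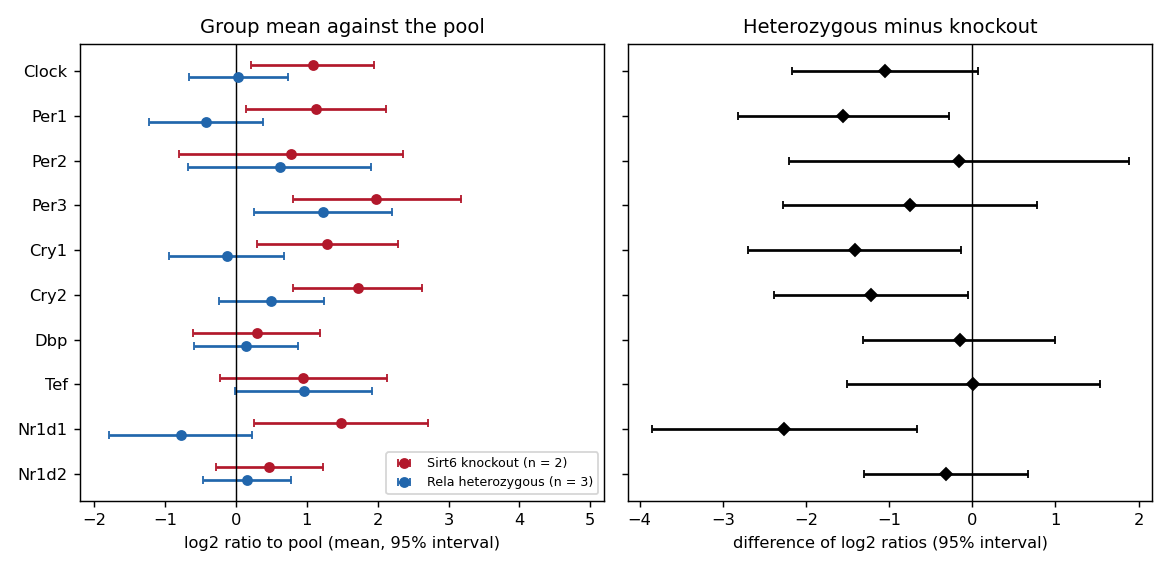
Left, mean log2 ratio to the pool of each clock gene in the knockout (n = 2) and the heterozygous group (n = 3); right, heterozygous minus knockout mean; bars are limma's 95% intervals, not adjusted for the number of genes. The knockout means lie above 0 for all 10 genes, and the interval of the difference lies below 0 for Per1, Cry1, Cry2 and Nr1d1.

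Short promoter stretches are shown for the clock genes whose proximal promoter holds an E-box, an E-prime-box or a D-box, since these letters are how the loop addresses its own genes. RefSeq promoters (250 bases before to 50 after each start site, build GRCm38.p6) were matched for 9 of the 10 genes, with 13 start sites, and Per2 was not matched. Both strands were searched. The E-box CACGTG was found in 4 of the 13 promoters (3 genes) and in 7.15% of all 32851 promoters. The related E-prime-box CACGTT was in 3 (3 genes) and 4.68%. The D-box TTATGNAA was in 2 (2 genes) and 3.38%. Capitals mark these 3 motifs in the strand of the gene, in which an E-prime-box on the other strand reads AACGTG. None of the matches overlapped another motif searched.
Per1 (chr11:69098763-69098952, plus strand, E-box at -166 and D-box at -24 from the start): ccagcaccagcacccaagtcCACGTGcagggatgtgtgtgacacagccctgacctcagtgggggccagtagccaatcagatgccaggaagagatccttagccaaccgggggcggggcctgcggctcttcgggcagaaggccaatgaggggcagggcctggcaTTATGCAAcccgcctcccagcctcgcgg
Per3 (chr4:151044796-151044890, minus strand, D-boxes at -205 and -158): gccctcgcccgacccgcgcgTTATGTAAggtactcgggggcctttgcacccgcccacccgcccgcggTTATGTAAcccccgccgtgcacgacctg
Cry1 (chr10:85185089-85185153, minus strand, E-prime-box at -79 and E-box at -60): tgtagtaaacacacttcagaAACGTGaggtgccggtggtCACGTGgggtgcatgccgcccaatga
Cry2 (chr2:92434210-92434255, minus strand, E-prime-box at -166): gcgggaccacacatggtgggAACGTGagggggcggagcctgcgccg
Tef first start (chr15:81802526-81802571, plus strand, E-box at -127): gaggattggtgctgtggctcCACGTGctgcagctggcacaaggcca
Tef second start (chr15:81811256-81811301, plus strand, E-box at -138): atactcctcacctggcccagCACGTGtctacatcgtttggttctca
Nr1d1 (chr11:98775380-98775425, minus strand, E-prime-box at -28): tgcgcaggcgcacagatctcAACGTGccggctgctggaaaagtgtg

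Clock encodes the activating partner of BMAL1 and had 3 probes. Probe 10636 read 0.74 and 1.28 on knockout arrays 1 and 2, then 1.18, 0.51 and -0.02. Probe 14389 read 0.66 and 1.20, then 0.91, 0.44 and 0.08 in the same order. At both probes the knockout values lay above the pool and the groups overlapped. Probe 32157 read 1.11 and 1.49 in the knockout and -3.30 on the library labelled heterozygous 1, with blanks on the other two. That single reading put the gene mean of this library at -0.41 and the difference between the groups at -1.05 ± 0.47 (limma SE, n = 3 and 2, adjusted p = 0.587). Over the probes with a value on all arrays the difference was -0.45 ± 0.48 (limma adjusted p = 0.846), with a 95% interval from -1.60 to 0.70. The knockout mean against the pool was 1.08 ± 0.36 over all probes and 0.97 ± 0.37 over the complete ones (SE, n = 2, limma adjusted p = 0.177 and 0.216).

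The PER proteins carry the repressive arm of the loop. Per1, with 1 probe, stood at 0.98 and 1.28 in the knockout spleens, and its heterozygous values were -0.92, -0.73 and 0.36. Both knockout arrays lay above all 3 heterozygous arrays. The difference was -1.55 ± 0.53 (limma SE, n = 3 and 2, adjusted p = 0.468), a 2.93-fold lower ratio with a 95% interval on the log2 scale from -2.82 to -0.28. It was -1.31 without the library labelled heterozygous 1. Per3 probe 17072 gave 1.52 and 2.44 for the knockout, then 2.26, 0.70 and 0.61 for the heterozygous spleens. These 5 values were all above the pool, and the groups overlapped. Averaged over its available probes, Per3 was at 1.98 ± 0.50 in the knockout (limma SE, n = 2, adjusted p = 0.116). In the heterozygous group it was at 1.23 ± 0.40 (limma SE, n = 3, adjusted p = 0.36), and at 0.71 without the library labelled heterozygous 1. Probe 17072 alone had a heterozygous mean of 1.19. The other Per3 probe, 2805, had 1 value, 0.84 on heterozygous array 3.

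Per2 depended on the probe. Probe 38331 gave 1.02 and 2.46 for the knockout, then 1.91, 0.26 and 0.50 for the heterozygous spleens, each above the pool. Probe 24317 read -1.20 and 0.83 on the knockout arrays and -1.39 on heterozygous array 2, with blanks elsewhere. The probes thus disagreed in sign on knockout array 1 and on heterozygous array 2. Averaged, Per2 was at 0.78 ± 0.66 in the knockout (limma SE, n = 2, adjusted p = 0.525). On probe 38331 alone, the only one complete, it was at 1.74 ± 0.54 (limma SE, n = 2, adjusted p = 0.162).

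CRY1 and CRY2 are the partners of PER in repression. Cry1 gave 1.27 and 1.30 for the knockout, the closest pair among the 10 genes, then 0.06, 0.49 and -0.93 for the heterozygous spleens. The groups did not overlap, and the heterozygous arrays lay on both sides of the pool. The difference was -1.41 ± 0.54 (limma SE, n = 3 and 2, adjusted p = 0.518), a 2.66-fold lower ratio. Cry2 gave 1.24 and 2.20 for the knockout, then 0.76, 0.14 and 0.60 for the heterozygous spleens. It was above the pool on all 5 arrays, and again the groups did not overlap. The knockout mean of Cry2, 1.72 ± 0.38, had the smallest adjusted p of the 10 genes against the pool (limma SE, n = 2, adjusted p = 0.108). The difference for Cry2 was -1.22 ± 0.49 (limma SE, n = 3 and 2, adjusted p = 0.541). Leaving out knockout array 2 gave -0.74, and leaving out knockout array 1 gave -1.70.

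Nr1d1 and Nr1d2 encode REV-ERB alpha and REV-ERB beta, nuclear receptors that repress Arntl. Nr1d1 had the largest difference between the groups. Probe 14698 gave 2.01 and 1.34 for the knockout, then 0.48, -1.28 and -0.92. Probe 27576 read 1.97 and 1.29, then 0.26, -1.95 and -1.28, so that both complete probes gave the same order of arrays. The remaining probe, 37309, read 1.31 and 0.95 in the knockout and was blank on all heterozygous arrays. Every knockout value was above the pool, heterozygous arrays 2 and 3 were below it, and the library labelled heterozygous 1 lay between. The difference of the gene means was -2.26 ± 0.66 (limma SE, n = 3 and 2, adjusted p = 0.413), a 4.79-fold lower ratio with a 95% interval on the log2 scale from -3.85 to -0.67. It was -2.83 without the library labelled heterozygous 1 (limma adjusted p = 0.165) and lay between -1.84 and -2.83 whichever array was left out. Nr1d1 is overlapped on the opposite strand by Thra, a thyroid hormone receptor gene. Of its complete probes, 2161 gave 0.68 and 0.49, then -1.05, -0.24 and 0.15. Thra probe 10446 gave 0.85 and 0.86, then -0.92, -0.83 and 0.50, and the groups did not overlap at either. No source used here places the Nr1d1 probes inside or outside the overlap.

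The Nr1d2 probes disagreed. Probe 6124 gave 1.27 and 1.90 for the knockout, then 1.01, 0.53 and 0.79 for the heterozygous spleens. Probe 26650 read -0.26 and -1.03, then -1.22, 0.02 and -0.21. The first lay above the pool on all arrays and the second below it on 4 of 5. Fitted alone, they gave 1.59 ± 0.35 and -0.65 ± 0.44 in the knockout (limma SE, n = 2, adjusted p = 0.185 and 0.448). Their mean of 0.47 for the gene therefore describes neither probe. The files do not say which transcripts each probe binds.

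Dbp and Tef encode PAR bZIP factors, which carry the output of the clock through D-boxes. Dbp lay nearest to the pool of the 10 genes in the knockout, at 0.17 and 0.41, and its heterozygous values were 0.73, -0.32 and -0.003. Its difference between the groups was -0.15 ± 0.48 (limma SE, n = 3 and 2, adjusted p = 0.959), with a 95% interval from -1.31 to 1.00. A change in Dbp of the size seen for Nr1d1 (-2.26) lies outside that interval. Tef probe 832 gave 1.41 and 2.12 for the knockout, then 2.09, 0.34 and 0.44 for the heterozygous spleens, above the pool on all 5 with overlapping groups. The other probes were sparse. Tef probe 10452 read 0.76 and -0.37 in the knockout and 0.34 on heterozygous array 2, and probe 36419 read 0.67 on knockout array 2 alone. With all probes averaged Tef showed a difference of 0.01 ± 0.64, and with the complete probe -0.81 ± 0.65 (limma SE, n = 3 and 2, adjusted p = 0.999 and 0.788).

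Taken probe by probe, 12 of the 13 complete probes were above the pool on both knockout arrays, beside 41.7% of the 17744 complete probes of the array. At an unadjusted p under 0.05, 11 of the 13 were higher in the knockout, beside 9.63% of all complete probes. The exceptions were Dbp probe 18693 and Nr1d2 probe 26650. Probes of 1 gene share their transcript and are not independent. Per3, Cry2 and Tef were above the pool on all 5 arrays, 3 of 10 genes beside 11.4% of all genes. All 3 heterozygous arrays lay below both knockout arrays for 6 of 10 gene means, beside 13.8% of all genes. These were Per1, Cry1, Cry2, Nr1d1, Clock and Nr1d2. For the first 4 this held at every complete probe. Clock overlapped at both of its complete probes, and Nr1d2 at probe 26650. In the order of knockout means over all probes, Per3, Cry2, Nr1d1, Cry1, Per1, Clock, Tef, Per2, Nr1d2 and Dbp, the step between neighbours was smaller than limma's SE of either gene. When the spread was estimated from the knockout arrays alone, limma called 7 of the 10 higher after adjustment (all but Per2, Dbp and Nr1d2), beside 17.4% of all genes. The scatter of group means places the clock genes among all genes.

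**Figure D3:**
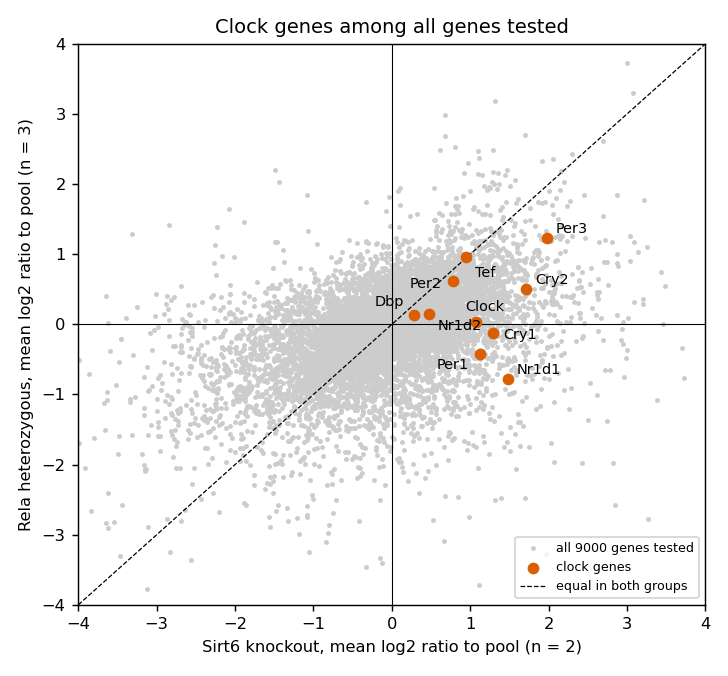
Mean log2 ratio to the pool in the knockout group (horizontal axis, n = 2) against the heterozygous group (vertical axis, n = 3) for the 9000 genes tested (grey) and the 10 clock genes (orange). The axes end at 4 either way and leave out 23 genes; all clock genes lie right of 0, and 9 of 10 lie below the dashed line of equal means, with Tef on it.

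An E-box or E-prime-box was found for 5 genes, Per1, Cry1, Cry2, Nr1d1 and Tef. The first 4 are those lower in the difference at an unadjusted p under 0.05. Tef, with an E-box at both start sites, had a difference of 0.01 over all probes and of -0.81 on its complete probe. This tally was made after the values were seen, and the relation was not tested. Of the E-box forms, Nr1d1 and Cry2 held the E-prime-box alone. The REV-ERB and ROR core AGGTCA was found in the promoters of Clock, Per1 and Nr1d2 (16.3% of all promoters). The cAMP response core TGACG was found in those of Per1, Cry1 and Cry2 (20.8%), and the glucocorticoid response core AGAACA in that of Tef (19% of all). A kB site, the motif bound by NF-kB, was found in Cry2, Clock and Tef (8.46% of all). A match is a description of letters, and letters outside these windows were not searched. The map of motif positions shows where each lies.

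**Figure D4:**
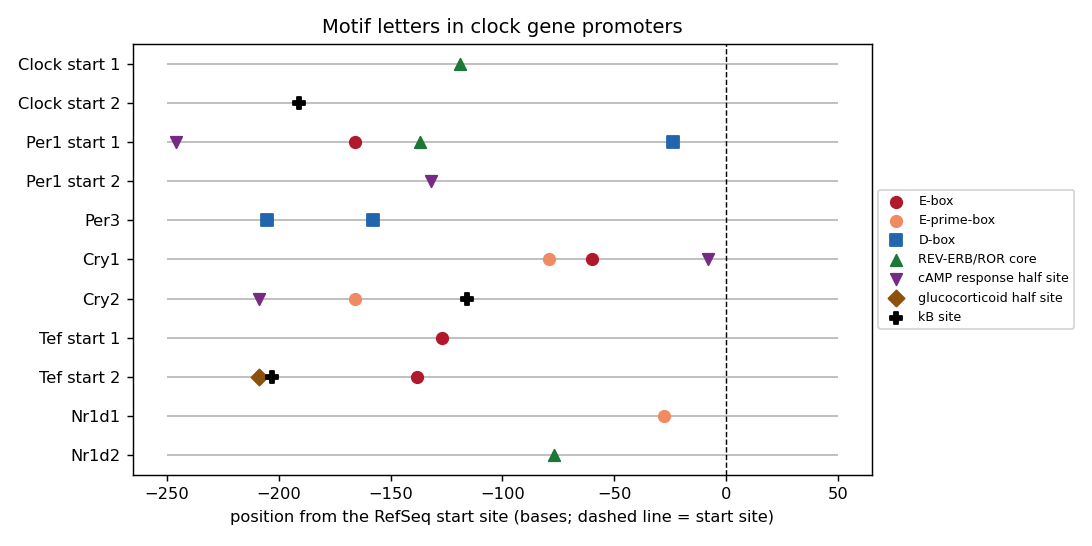
Position of each motif match (horizontal axis, bases from the RefSeq start site) in the 11 clock gene promoters with a match; each mark is 1 match on either strand. E-boxes lie between -166 and -60 in Per1, Cry1 and Tef, and the D-boxes of Per3 lie at -205 and -158.

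Other transcription factors of the loop lay on both sides of the pool. Of 12 listed, 10 were on the array and 6 were tested, with a median of 0.32 in the knockout against -0.60 for the heterozygous group. None was called after adjustment. Arntl, which encodes BMAL1, was below the pool on all 5 arrays, with -0.12 and -0.41 in the knockout against -0.56, -0.46 and -0.83 for the heterozygous group. Its mean was -0.62 ± 0.26 in the heterozygous group (limma SE, n = 3, adjusted p = 0.386). Bhlhe40 and Bhlhe41 encode the related repressors DEC1 and DEC2 and lay on opposite sides of the pool. Bhlhe40 read 1.09 and 3.26 in the knockout against 3.11, 0.97 and -0.28 for the heterozygous group. Bhlhe41 read -0.54 and -1.34, then -0.91, -0.30 and -0.60. In the knockout both had an unadjusted p under 0.05, in opposite directions, at 2.17 ± 0.84 for Bhlhe40 and -0.94 ± 0.36 for Bhlhe41 (limma SE, n = 2, adjusted p = 0.221 and 0.219). Rora, which encodes the receptor that activates Arntl through the sites that REV-ERB represses, read 0.72 and 1.09 in the knockout against -1.11, 0.24 and -1.54 for the heterozygous group. Its difference of -1.71 ± 0.62 had an unadjusted p under 0.05 (limma SE, n = 3 and 2, adjusted p = 0.489). Nfil3, a repressor at D-boxes, was at 1.25 and 1.33 in the knockout against 0.53, 1.98 and -1.15 for the heterozygous group. Hlf, the remaining PAR bZIP gene, lacked a value on heterozygous array 3, was not tested and is named after its values were seen. It read 2.10 and 2.48 in the knockout against -2.90 on the library labelled heterozygous 1 and -1.21 on heterozygous array 2, on opposite sides of the pool.

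Kinases and ubiquitin enzymes that set the stability of PER and CRY had a median of 0.32 in the knockout against 0.16 for the heterozygous group (7 of 9 tested, 0 called). Btrc, which encodes the ubiquitin ligase subunit that recognises phosphorylated PER, was below the pool on all 5 arrays (-1.27, -1.47, -1.96, -0.69 and -0.33). Fbxw11, its close paralogue, was above the pool on all 5, between 0.31 and 0.99. Csnk1d and Csnk1e, the casein kinase genes best known for phosphorylating PER, had means within 0.51 of the pool in both groups. Clock-controlled output genes had a median of -0.10 in the knockout against 0.41 for the heterozygous group (5 of 6 tested, 0 called). Klf10 was at 1.20 ± 0.36 in the knockout (limma SE, n = 2, adjusted p = 0.158), whereas Noct, a deadenylase-related gene known as nocturnin, was at -1.49 ± 0.77 (limma SE, n = 2, adjusted p = 0.317). Noct read 2.59 on heterozygous array 3 and was below the pool on the other four.

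Genes that answer signals known to reach Per1 were set beside the clock genes. Glucocorticoid-induced genes (10 of 11 tested) had medians of 2.25 and 2.61 on the knockout arrays and of -0.62, 0.53 and -0.37 in the heterozygous group. The clock genes had 1.03 and 1.29, then 0.55, 0.21 and 0.33. The groups did not overlap in either list, and the distance between them was larger for the glucocorticoid-induced genes. Klf9, Dusp1 and Errfi1 are named for the largest moderated t in the knockout. They were at 2.70, 3.09 and 3.38 there, against -0.23, 0.32 and -1.08 in the heterozygous group. The list was not uniform. In the knockout 9 of its 10 genes were above the pool and 1 was below, with means from -0.25 to 3.73. None of the 10 passed the adjustment in any comparison. Immediate early genes responsive to CREB (8 of 10 tested) had medians of 0.87 and 2.49, then 1.44, 0.53 and -0.46, and the groups overlapped. Whether these signals have a part in the clock gene values was not tested.

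Markers of cell types also lay apart between the groups. The median of 5 erythroid markers (of 8 listed) was -3.56 and -3.06 in the knockout, then -0.43, -0.59 and 2.09 in the heterozygous group. Neutrophil markers (7 of 7 tested) were at 3.06 and 1.39, then 0.20, 0.33 and -0.59. Markers of dividing cells (4 of 6 tested) were at -1.71 and -2.13, then -1.97, -0.46 and 0.62. Those of exocrine pancreas (4 of 6 tested) were at -2.27 and -2.69, then 1.41, -0.13 and -0.68. Single markers departed from these medians. Cela1 of the pancreas list was above the pool on all 5 arrays, between 0.11 and 1.68. Among the erythroid markers Alas2 had a knockout mean of -0.67, beside -5.30 to -2.57 for the rest. The neutrophil marker Ngp read 2.21 and -0.36 in the knockout. The array medians of macrophage markers (5 of 9 tested) were 1.63 and 0.54, then -1.23, 0.71 and -0.55, and single markers lay on both sides of the pool, with knockout means from -0.93 (Adgre1) to 2.73 (Vcam1). Those of stromal markers (5 of 6 tested) were 0.26 and 0.05, then -1.28, -0.35 and -1.17, with knockout means from -1.94 (Col3a1) to 2.63 (Pdgfrb). The medians of B cell markers (4 of 6 tested) were below the pool on all 5 arrays, between -1.39 and -0.59, and those of T cell markers (5 of 6 tested) lay between -0.57 and 1.29. The groups did not overlap in the erythroid, neutrophil, stromal and pancreas medians. Their part in the clock gene values was not tested.

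**Figure D5:**
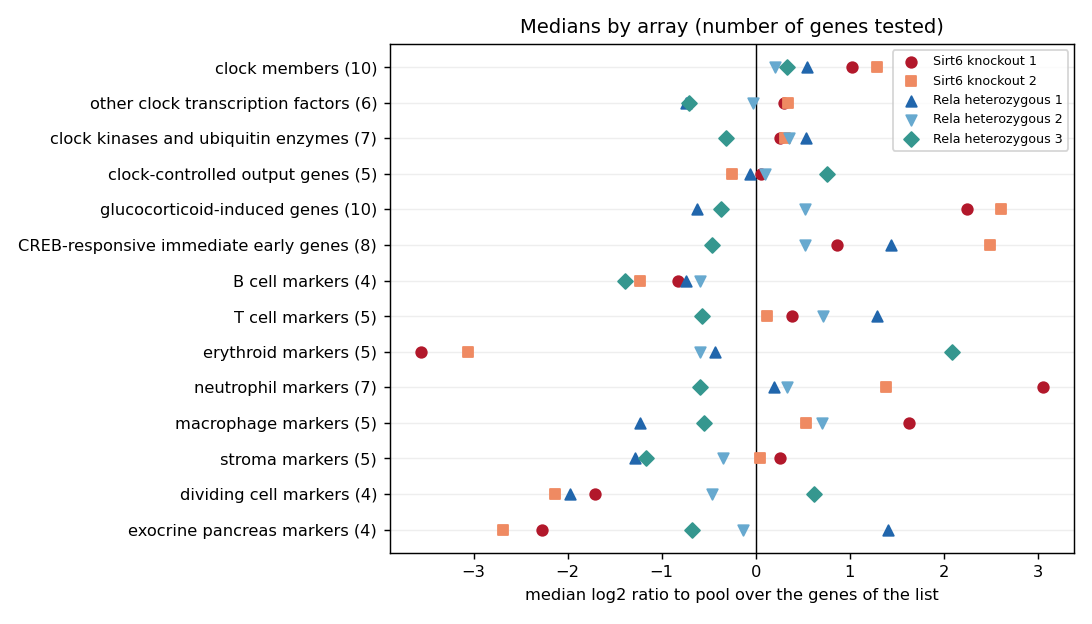
Median log2 ratio to the pool (horizontal axis) over the tested genes of each list, 1 mark per array; the number of genes is in brackets. The clock genes separate the knockout arrays (1.03 and 1.29) from the heterozygous arrays (0.21 to 0.55), and the glucocorticoid-induced, neutrophil, erythroid and exocrine pancreas lists separate them more widely.

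The genes with the most similar ratios over the 5 arrays were found by root mean square difference on the log2 scale. Nr1d1 had no close match, and its nearest gene was Ppp1r3c, a glycogen-targeting phosphatase subunit, at a difference of 0.31. Ppp1r3c read 1.95 and 1.44 in the knockout against 0.77, -1.35 and -0.72 for the heterozygous group. The nearest to Per1 was Sin3a, which encodes a scaffold of histone deacetylase complexes (0.20), and the nearest to Per3 was Bach1, a repressor of haem-responsive genes (0.20). Cry1 lay nearest to Spata6 (0.15), Cry2 to the splicing regulator gene Ptbp2 (0.19), Tef to the macrophage receptor gene Cd163 (0.23) and Dbp to Rpp14 (0.14). Clock was nearest to Itprid2 (0.16), Per2 to Wiz (0.20) and Nr1d2 to Mtor (0.08). The search used the mean of all available probes. For Clock, Per2, Tef and Nr1d2 these probes disagreed or were partly blank. Clock, at -0.41 on the library labelled heterozygous 1 in this search, was at 1.04 there over complete probes. The 10 clock genes themselves were left out of the search. With 5 arrays and 9000 genes, near matches are many for genes close to the pool, and the measure says nothing of shared control.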

How the data were processed

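RNA from each mutant spleen (Cy5) and a wild-type spleen pool (Cy3) was hybridised to a 2-colour array, per the labels' protocols. The deposited values were read as log2 ratios; no source used here says how the authors normalized them or why cells are blank. Each array was centred on its median and the available probes of a gene were averaged. limma 3.58.1 (R 4.3.3) fitted group means over 5 arrays and 9000 genes (3 residual and 3.63 prior degrees of freedom), with 2-sided tests and Benjamini-Hochberg adjustment at 0.05. The number of arrays limits the precision. Nothing says that samples of a group came from separate animals, so the p-values reflect spread among samples that may be technical. The code was tested on simulated data. Of 100 simulated knockout changes of 2.0 on the log2 scale, 14 were called after adjustment, and of 100 changes of 4.0, 84 were. The highest knockout mean among the clock genes was 1.98, so a clock gene that was not called is not shown to be unchanged. The clock genes and all lists were chosen with earlier results of these data known. The 10 clock genes are all named; other clock genes could be named where read on all arrays, glucocorticoid-induced and immediate early genes by the largest moderated t (at most 4), and similar genes by the 2 smallest differences. Alternatives were other scalings, filters and probe rules, a replicate block and leaving out each array; the mean of complete probes was added after seeing the data.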

Additional observations from a re-analysis of the deposited data

How the results depend on the processing

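The knockout means of all 10 clock genes stayed above the pool under the scalings tried (as deposited, quantile, equal median absolute deviation) and with complete probes. With the spread of the knockout arrays alone, which rests on 2 arrays, 7 of 10 were higher after adjustment, beside 17.4% of all genes. Probe by probe, 9.63% of all complete probes were higher in the knockout at an unadjusted p under 0.05. At an unadjusted p under 0.05, the knockout count was 11 of 13 for each probe on its own and 0 to 7 when arrays were left out in turn (4.96% to 29.3% of all genes in either direction). The heterozygous count was 2 under quantile scaling, equal median absolute deviation and each probe on its own, for which no share of all genes was tallied. It was 1 to 2 when a heterozygous array was left out (7.61% to 18% of all genes in either direction). Without the library labelled heterozygous 1 that count was Nr1d1, lower at -1.36, and not Per3; without heterozygous array 3 it was Per3 and Per1, the latter lower at -0.82. The count for the difference was 0 to 5 when arrays were left out (2.99% to 15.4% of all genes). With the replicate block it was 2, and no share of all genes was tallied. Heterozygous array 3 shares its number with no knockout array, so it did not inform the block differences. These equalled the differences without that array (-2.10 for Nr1d1 in both). The shared numbers 1 and 2 are not said to pair the samples, and deviations of same-numbered arrays correlated at -0.409 and -0.399 across genes. Deviations of the 2 knockout arrays mirror each other, so the crossed pairs had to give 0.409 and 0.399. These correlations therefore do not settle the pairing. Signs turned for single genes, and the cause was not tested. When arrays were left out, the knockout mean of Per2 ranged from -0.09 to 1.64, and the heterozygous means from -0.19 to 0.25 for Clock, -0.03 to 1.21 for Per2, -0.43 to 0.27 for Cry1 and -0.16 to 0.36 for Dbp. The differences ranged from -1.03 to 0.71 for Per2, -0.45 to 0.08 for Dbp and -0.56 to 0.32 for Tef. Dbp was at -0.0043 in the heterozygous group with equal median absolute deviation. Nr1d2 probe 26650 gave -0.65, -0.47 and 0.18 in the knockout, the heterozygous group and the difference. The Tef difference was -0.01 as deposited, -0.11 with equal median absolute deviation, and -0.81 for probe 832 and for complete probes, an alternative chosen after seeing the data.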
